A study of Mus musculus with 24 samples.

Results

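The transcripts described here are those of 30 genes of cholesterol and fatty acid synthesis, found by gene symbol among the 52997 symbols of a mouse RNA-seq count table. They comprise 18 enzymes of the sterol pathway, 4 genes of its control and transport, and 8 fatty acid enzymes. All 30 passed the filter on low counts, as did 16263 genes in all. RNA came from hindlimb muscle of C57BL/6 mice aged 8 weeks, either uninjured or taken at day 1 after injury with cardiotoxin, which comes from snake venom and kills muscle fibers while sparing many other cells. From each condition 4 populations were sorted, with 3 libraries per group and 24 in all. CD31+ cells are endothelial cells, which line blood vessels, and CD45+ cells are hematopoietic cells, here the immune cells of the muscle. MSC are mesenchymal stromal cells, negative for CD45 and CD31 and positive for Sca1 and PDGFRa. MuSC are satellite cells, the muscle stem cells, negative for CD45, CD31 and Sca1 and positive for Vcam1. The labels name no allele or agent beyond these in any group, and the design text describes the 3 libraries as biological replicates. Whether equal numbers mark a shared mouse is not stated.

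Cells make cholesterol from acetyl-CoA through mevalonate, isoprenoid units and squalene, and then trim the sterol rings in a series of late steps. The same acetyl-CoA feeds fatty acid synthesis, after which elongases and desaturases shape the chains. Genes of both branches are known targets of SREBP transcription factors, encoded by Srebf1 and Srebf2. SREBP is held in the endoplasmic reticulum by INSIG proteins when sterols are plentiful and is released for cleavage when they are scarce. Sterol regulatory elements, CCAAT boxes bound by NF-Y and GC boxes bound by Sp1 lie together in many of these promoters.

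Promoters are shown for the 3 genes with a match to the sterol regulatory element motifs searched, because the response of this pathway is known to run through them. RefSeq promoters on GRCm38.p6 (250 bases before to 50 after each start) were found for 23 of the 30 genes, 28 promoters in all. The motif TCACNCCAC, read on both strands, lay in 1 of the 23 genes (Hmgcs1) and in 1.44% of all genes with a promoter in that table. Its shorter form CACNCCAC, which every match of the longer motif also holds, lay in 3 of the 23 and in 7.12% of all genes with a promoter. Each sequence below runs 5′ to 3′ on the gene's strand and stops where the first exon in GENCODE begins, or earlier at the RefSeq start. Capitals mark matches to CACNCCAC or TCACNCCAC and to CCAAT, on either strand.
Hmgcs1, chr13:119690101-119690350, plus strand: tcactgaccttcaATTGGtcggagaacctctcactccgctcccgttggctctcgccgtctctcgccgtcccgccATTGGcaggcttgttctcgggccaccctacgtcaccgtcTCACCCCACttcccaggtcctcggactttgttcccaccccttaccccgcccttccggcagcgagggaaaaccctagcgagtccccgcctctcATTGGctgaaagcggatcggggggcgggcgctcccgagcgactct
Acat2, chr17:12960748-12960975, minus strand: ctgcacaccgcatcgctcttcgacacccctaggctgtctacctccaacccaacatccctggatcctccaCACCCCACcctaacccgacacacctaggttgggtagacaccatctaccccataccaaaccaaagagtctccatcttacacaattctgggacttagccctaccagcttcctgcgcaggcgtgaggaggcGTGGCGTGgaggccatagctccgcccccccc
Insig1, chr5:28071162-28071362, plus strand: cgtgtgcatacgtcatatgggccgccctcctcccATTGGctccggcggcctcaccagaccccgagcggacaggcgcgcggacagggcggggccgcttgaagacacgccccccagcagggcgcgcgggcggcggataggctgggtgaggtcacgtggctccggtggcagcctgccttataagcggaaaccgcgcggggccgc
In Hmgcs1 the match TCACCCCAC begins 137 bases before the RefSeq start, between CCAAT matches at 176 and 45 bases. The Acat2 matches begin 181 and 53 bases before the start, with no CCAAT match in the window. The Insig1 match to the short motif begins 9 bases before the RefSeq start, inside the first exon of GENCODE, and is not in the printed stretch. CCAAT was found in 19 of the 23 genes (82.6%) against 41.1% of all genes with a promoter. The GC box GGGCGG was found in 19 of 23 as well, against 38.2% of all genes. These are matches of letters in a fixed window and not measured binding sites.

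Library totals ran from 2301202 to 7649841 counts, so that 3 counts correspond to 0.389 to 1.02 CPM (counts scaled to library size) and values near or under 1 CPM rest on few reads. The markers of each population were high in their own sort: summed satellite cell markers reached 6319 to 7714 CPM in uninjured MuSC and at most 139 CPM in any library of the other populations. Other lists were less confined. Stromal markers summed to 58722 to 79453 CPM in uninjured MSC, 2159 to 2688 CPM in uninjured CD31+ cells and 942 to 1067 CPM in uninjured MuSC. Of these 8 markers, 2 had a mean at or under 1 CPM in uninjured CD31+ cells and 4 in uninjured MuSC. Pericyte and smooth muscle markers summed to 563 to 628 CPM in uninjured MuSC and 240 to 409 CPM in uninjured CD31+ cells. Of these 6 markers, 2 had a mean at or under 1 CPM in uninjured MuSC and 0 in uninjured CD31+ cells. Sums that rest on part of a list need not mean that the cell type was present. For the genes described here library 1 stood apart in uninjured MSC, MuSC and CD45+ cells. In uninjured MSC, library 1 held the highest value for 28 of the 30 genes, against 40.1% of all genes tested, and in uninjured MuSC library 1 did so for 27 of 30, against 39.4%. In uninjured CD45+ cells library 1 was highest for 20 of 30, against 37.6%. This did not hold in uninjured CD31+ cells, where library 1 was highest for 7 of 30, against 35.3%. In the injured groups library 1 was highest for 7 (CD45+), 10 (CD31+ and MuSC) and 13 genes (MSC). Library 3 of injured MuSC was highest for 19 of 30, against 33.6%. The summed level of the 18 sterol enzymes was 1363 CPM in MSC library 1 and 825 and 907 CPM in libraries 2 and 3, and it was 1148, 625 and 487 CPM in the 3 MuSC libraries. Summed muscle fiber markers were 416, 321 and 154 CPM in the same MSC libraries and 535, 520 and 470 CPM in the MuSC libraries, and their part in the difference was not tested. Counts of the 30 genes that turned on single libraries are also given without them.

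**Figure D1:**
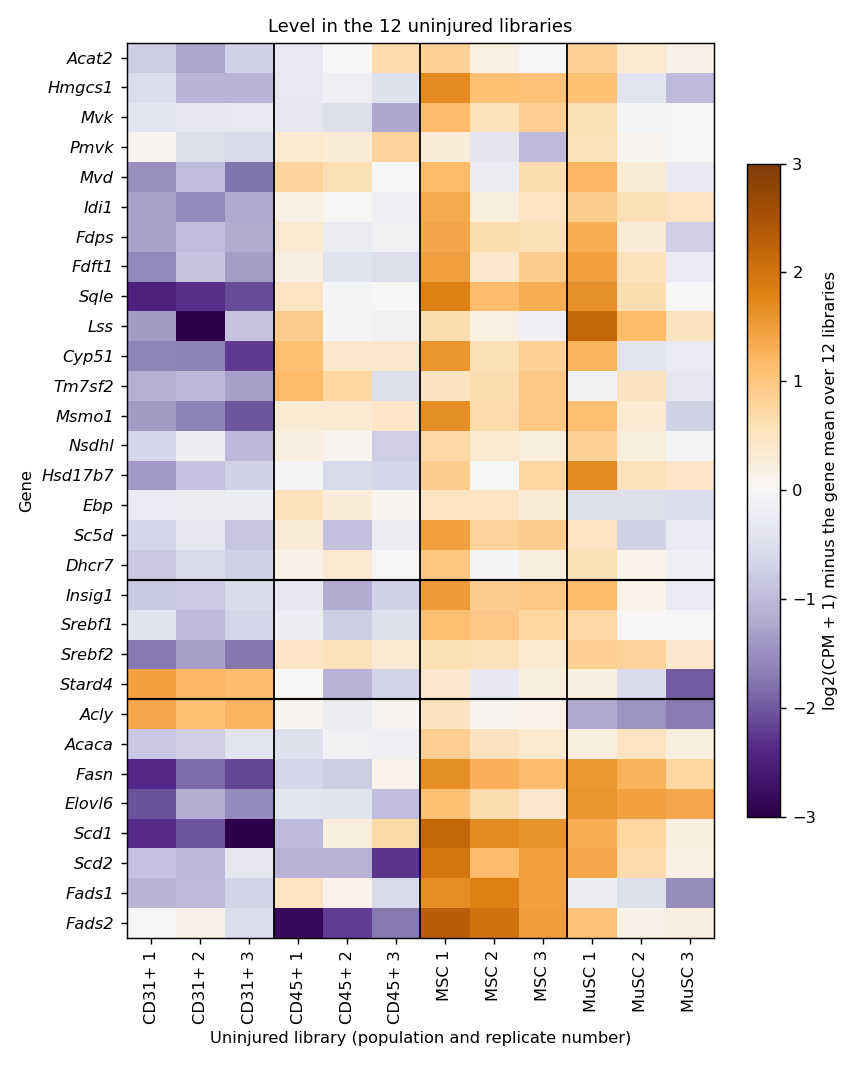
Level of each of the 30 genes in the 12 uninjured libraries, as log2(CPM + 1) minus the gene's mean over those libraries. Columns are libraries grouped by population, rows are genes with lines between sterol enzymes, regulators and transport, and fatty acid enzymes; library 1 of MSC and of MuSC is the highest of its group for 28 and 27 genes.

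In uninjured muscle the mean level was lowest in CD31+ cells for 24 of the 30 genes and highest in MSC for 22. Without library 1 of MSC it was highest in MSC for 16 genes and in MuSC for 11, where Mvd, Idi1, Fdft1, Nsdhl, Dhcr7 and Fasn had changed places. Without the 4 uninjured libraries numbered 1 it was highest in MSC for 19 genes, in MuSC for 5 and in CD45+ cells for 4. Against MSC, 27 of 30 genes were lower in CD31+ cells at an adjusted p below 0.05 in edgeR's test, where 24.2% of all genes were lower. Only 2 were higher in CD31+ cells than in MSC (22.8% of all genes), and 47% of all genes differed either way. Against MuSC 22 were lower (23.2%) and 3 higher (26%), where 49.1% of all genes differed, and against CD45+ cells 18 were lower (25.1%) and 3 higher (25.5%), where 50.6% differed. In CD45+ cells 17 genes were lower (28.4%) and 1 higher (28.4%) than in MSC, where 56.8% differed. Against MuSC 11 were lower (27.2%) and 3 higher (29%), where 56.2% differed. Between MSC and MuSC, 9 were higher in MSC (23.3%) and 2 higher in MuSC (17.4%), where 40.7% of all genes differed. That last count of 11 was 6 without MSC library 1 and 17 without MuSC library 1, and 7 without MuSC library 2 or 3. The 18 genes that differed between CD45+ cells and MSC became 12 without MSC library 1.

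Sqle, which oxidizes squalene in an early oxygen-dependent step, differed widely between populations. Its level was 6.16, 7.06 and 8.55 CPM in uninjured CD31+ cells, 56.0, 37.9 and 40.4 in CD45+ cells, 124, 62.0 and 39.1 in MuSC, and 143, 88.7 and 98.6 in MSC. All CD31+ libraries lay below all others, while MuSC overlapped both CD45+ cells and MSC. The log2 difference of CD31+ cells from MSC was -3.94 (adjusted p = 5.84e-09), and MSC and MuSC did not differ beyond their spread (adjusted p = 0.150). Hmgcs1, which makes HMG-CoA from acetoacetyl-CoA, was highest in MSC at 93.8, 60.0 and 59.3 CPM, and passed against each of the other populations, though not without MSC library 1. Its MuSC libraries were at 60.4, 21.4 and 13.5 CPM, so library 1 of MuSC reached the lower MSC libraries. Idi1, which interconverts isopentenyl and dimethylallyl diphosphate, had few counts in CD31+ cells, with 2 over the 3 uninjured libraries and 64 over those of MSC.

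By the test against each of the other populations, 7 genes were highest in uninjured MSC: Hmgcs1, Mvk, Sc5d, Srebf1, Scd1, Fads1 and Fads2 (9.09% of all genes). Lss and Elovl6 were highest in MuSC (7.88% of all genes), and Stard4 and Acly in CD31+ cells (9.92%). The 7 became 1, Fads1, without library 1 of uninjured MSC and 13 without library 1 of uninjured MuSC, which also ended the calls of Lss and Elovl6. They became 3 without library 2 or 3 of uninjured MuSC or library 3 of uninjured CD45+ cells, and 4 without library 2 or 3 of uninjured MSC, library 1 of injured MSC, library 1 or 2 of uninjured CD31+ cells or any library of injured CD45+ cells. With all 4 uninjured libraries numbered 1 left out, 7 genes were again highest in MSC, with Sqle and Insig1 in place of Mvk and Scd1. Without library 2 or 3 of uninjured CD45+ cells Elovl6 alone was highest in MuSC, and Stard4 and Acly were highest in CD31+ cells with each library left out. None of the 30 was highest in CD45+ cells by this rule, which asks for an adjusted p below 0.05 in edgeR against all 3 others. Stard4, a soluble carrier of cholesterol between membranes, was at 96.1, 81.6 and 77.5 CPM in CD31+ cells and at most 45.4 CPM in any other uninjured library. Acly, which splits citrate to supply acetyl-CoA, was at 243, 200 and 223 CPM in CD31+ cells, 133, 99.5 and 103 in MSC, 100, 81.3 and 98.7 in CD45+ cells and 40.5, 34.2 and 28.5 in MuSC. These libraries did not overlap between CD31+ cells and the rest, and MSC and CD45+ cells did not differ beyond their spread (adjusted p = 0.117). Endothelial cells had this high Acly beside low Fasn, the fatty acid synthase itself, at 8.08, 12.1 and 9.73 CPM against 147, 113 and 103 in MSC. Per kilobase of merged exon, the uninjured CD31+ level was highest for Acly among the 30 genes, at 42.0 CPM per kilobase. Insig1 led in MSC at 47.2 and in MuSC at 29.7, with Ebp next at 45.0 and 23.5. These leads lean on library 1, where Insig1 was at 189 CPM in MSC and 148 CPM in MuSC. In libraries 2 and 3 Insig1 was at 121 and 128 CPM in MSC and 71.5 and 55.6 CPM in MuSC. Ebp varied less, at 109, 108 and 94.9 CPM in MSC and 54.4, 55.6 and 53.0 CPM in MuSC.

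The desaturases differed widely too. Fads2, the delta-6 desaturase of polyunsaturated fatty acids, was at 75.4, 62.5 and 42.2 CPM in uninjured MSC and 1.19, 2.31 and 3.72 CPM in CD45+ cells, with CD45+ cells at a log2 difference of -4.66 from MSC (SE 0.50, adjusted p = 3.30e-08). Its neighbour on chromosome 19, Fads1, the delta-5 desaturase, was at 179, 196 and 152 CPM in MSC and 76.4, 59.0 and 36.1 in CD45+ cells. The CD45+ sort as a whole thus held a sizeable level of the Fads1 transcript with little of the Fads2 transcript. The stearoyl-CoA desaturases Scd1 and Scd2, which place the first double bond in saturated chains, also lie near each other on chromosome 19. In uninjured CD45+ cells Scd1 was at 20.4, 49.2 and 68.1 CPM and Scd2 at 22.5, 22.3 and 9.45, while in CD31+ cells Scd1 was at 7.44, 9.60 and 3.54 CPM and Scd2 at 26.1, 24 and 38.6. Of their 25-base words 9.97% (Scd1) and 8.57% (Scd2) occur in other genes, mainly Scd3.

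At day 1 after injury the genes that passed the test in stromal and immune cells were all lower, and few passed in endothelial cells and satellite cells. In MSC 14 of 30 fell and 0 rose, where 23.6% of all genes fell and 18.3% rose, 41.9% in all. The median log2 fold change of the 30 was -0.79 in MSC, beside -0.22 over all genes tested. In CD45+ cells 11 fell and 0 rose, where 18.5% of all genes fell and 16% rose (34.5% in all), with medians of -0.84 and -0.12. In CD31+ cells 2 rose and 2 fell (14.1% and 9.3% of all genes, 23.4% in all), with medians of 0.22 and -0.04. In MuSC 2 rose and 1 fell (21.4% and 17.5%, 38.8% in all), with medians of -0.27 and -0.04. The injured libraries all lay below the uninjured ones for 16 of the 30 genes in MSC (31.9% of all genes) and for 16 in CD45+ cells (22.9%), and all above for 1 in each (23% and 20.1%). In CD31+ cells 3 lay below (17.6%) and 8 above (19.6%), and in MuSC 2 below (24%) and 2 above (25.5%). Beside the counts of 0 from edgeR, 1 gene in MSC and 1 in CD45+ cells was higher at an unadjusted p below 0.05. DESeq2 called 0 higher in either population, and limma voom called 1 in MSC and 0 in CD45+ cells. With the size factors of DESeq2 in place of TMM, 2 rose and 4 fell in MuSC, and the median of all genes moved by -0.11 in CD31+ cells.

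**Figure D2:**
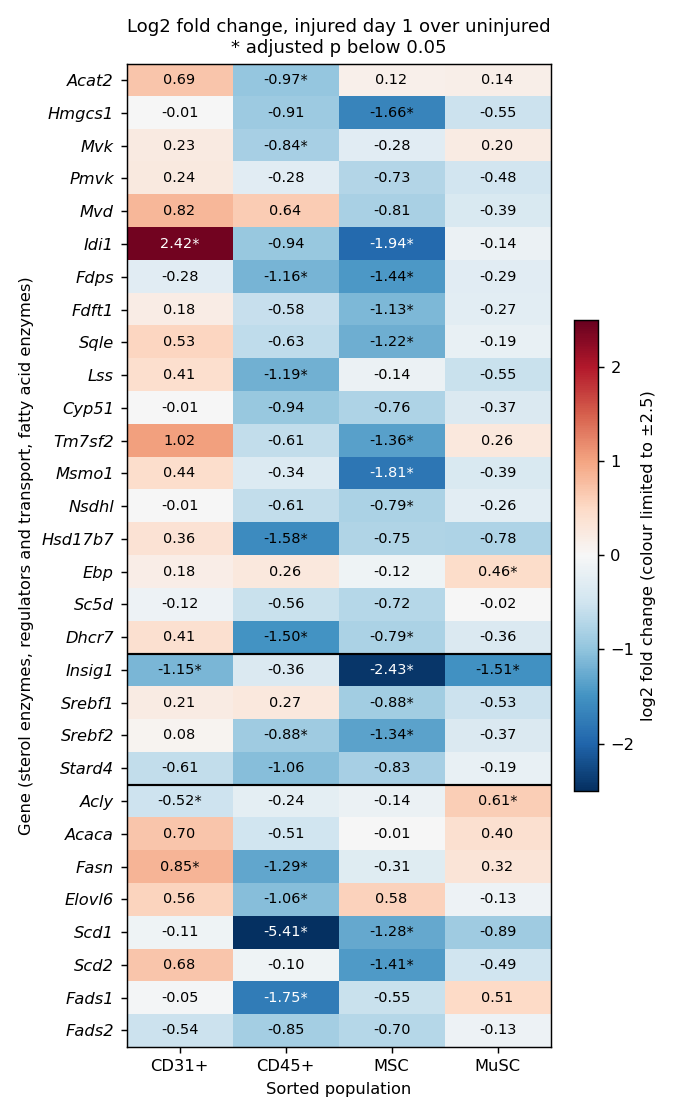
Log2 fold change, injured over uninjured, of the 30 genes (rows) in the 4 sorted populations (columns), with an asterisk where the adjusted p of edgeR's test was below 0.05. The MSC and CD45+ columns are mostly blue (lower), with 28 and 27 of 30 values below 0, against 11 in CD31+ and 22 in MuSC.

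Some of these counts turned on single libraries. Without library 1 of uninjured MSC, 7 genes fell in MSC and 1, Elovl6, rose. Without library 1 of injured CD45+ cells, 6 genes fell in CD45+ cells, and without library 1 of uninjured CD45+ cells 1 rose. Without library 3 of uninjured MuSC, the lowest of its group for many sterol genes, 7 fell in MuSC, and without library 2 of that group 3 fell. Without library 1 of injured MuSC 2 fell. In CD31+ cells the 2 genes that rose both lost the call without library 1 of the uninjured or library 2 of the injured cells, and 1 lost it without library 2 of the uninjured (Idi1), library 3 of the uninjured (Fasn) or library 1 of the injured cells (Fasn). The calls that held in each of the 13 alternatives run for their comparison were Hmgcs1, Sqle, Msmo1, Insig1, Srebf1, Srebf2 and Scd2 in MSC, and Hsd17b7, Dhcr7, Srebf2, Fasn, Scd1 and Fads1 in CD45+ cells. Insig1 in CD31+ cells and Insig1 and Acly in MuSC held in each as well.

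**Figure D3:**
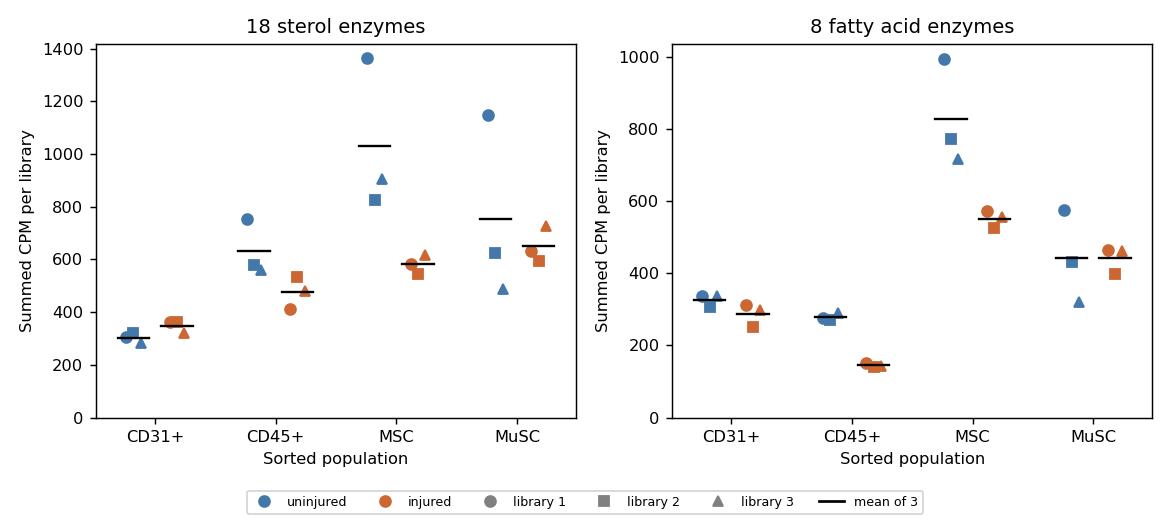
Summed CPM of the 18 sterol enzymes (left) and of the 8 fatty acid enzymes (right) in each library, by population, with blue for uninjured, orange for injured, symbols for the library number and a line at the mean of 3. Injured MSC lie between 544 and 615 CPM for the sterol enzymes, below all uninjured MSC libraries, while injured and uninjured MuSC overlap.

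Summed over the 18 sterol enzymes, the level in MSC was 1032 ± 290 CPM (SD, n = 3) in uninjured and 581 ± 35.6 CPM in injured muscle. In CD45+ cells it was 631 ± 106 and 475 ± 60.5 CPM, and neither pair of groups overlapped. In CD31+ cells the sum was 303 ± 20.3 CPM uninjured and 349 ± 23.2 CPM injured, with the highest uninjured library (322.3 CPM) just under the lowest injured one (322.4 CPM). In MuSC it was 753 ± 349 and 651 ± 68.5 CPM, with overlap. The 8 fatty acid enzymes summed to 828 ± 146 CPM in uninjured and 551 ± 23.4 CPM in injured MSC, and to 279 ± 10.3 and 145 ± 5.74 CPM in CD45+ cells. In these bulk samples fewer cells of a type and less RNA per cell cannot be told apart.

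The cell markers moved with injury too. In CD45+ cells summed neutrophil markers were 1124 to 3599 CPM uninjured and 7014 to 10706 CPM injured, and macrophage markers 5942 to 12477 and 3738 to 4357 CPM, each without overlap and with none of the 6 markers of either list at or under 1 CPM. In MSC the 8 stromal markers summed to 58722 to 79453 CPM uninjured and 19036 to 23772 CPM injured, and the 10 muscle fiber markers to 154 to 416 and 3.08 to 14.1 CPM. In MuSC the 8 satellite cell markers summed to 6319 to 7714 CPM uninjured and 2774 to 3239 CPM injured, and fiber markers to 470 to 535 and 185 to 230 CPM. Leukocyte markers in injured CD31+ cells were at 275 CPM in library 1 and 26.0 and 24.3 CPM in the other libraries. The 7 Schwann cell markers summed to 1556 to 1726 CPM in uninjured MSC and 604 to 617 CPM in injured MSC. In CD45+ cells they summed to 296 to 480 and 78.6 to 106 CPM, and they were lower in injured MuSC too. In CD31+ cells they were higher after injury, at 86.3 to 99.3 and then 166 to 273 CPM. In each group 2 to 4 of the 7 Schwann cell markers had a mean at or under 1 CPM. These sums thus rest on part of the list and need not follow Schwann cells. Pericyte and smooth muscle markers summed to 563 to 628 CPM in uninjured and 148 to 188 CPM in injured MuSC, with 2 and 1 of 6 at or under 1 CPM. The part of these shifts in the results was not tested. The 6 adipocyte markers, of a cell type rich in fatty acid synthesis, summed to at most 15.5 CPM in any library. In each group 4 to 6 of them had a mean at or under 1 CPM. Their sum was lower after injury without overlap in MSC (6.22 to 8.38 and then 0.719 to 2.15 CPM). It was so in CD45+ cells too (2.31 to 5.70 and then 0 to 0.467 CPM), and it overlapped in CD31+ cells and MuSC. The part of adipocytes was not tested either.

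Among the early enzymes, Hmgcs1 fell in MSC from 93.8, 60.0 and 59.3 CPM to 24.9, 24.5 and 18.2 CPM. All injured libraries lay below all uninjured ones, at a log2 fold change of -1.66 (SE 0.33, adjusted p = 0.000298), and of -1.25 without library 1. In CD45+ cells Hmgcs1 was at 22.8, 25.2 and 20.6 CPM uninjured and 12.1, 12 and 12.4 CPM injured, without overlap, and missed the threshold (adjusted p = 0.0567). Acat2, a thiolase that joins acetyl-CoA units, and Mvk, mevalonate kinase, fell in CD45+ cells by 0.97 and 0.84 on the log2 scale (adjusted p = 0.0494 and 0.0226), with overlapping libraries and calls that were lost in 6 and 8 of 13 alternatives. Of the words of Acat2, 45.5% are shared with Acat3, so its counts are uncertain. Pmvk and Mvd, which act on phosphorylated mevalonate, did not pass in any population. Mvd was the 1 gene of the 30 with higher, non-overlapping libraries in injured CD45+ cells (42.5, 37.6 and 24.9 CPM against 51.0, 64.2 and 48.6; adjusted p = 0.173), where 20.1% of all genes had such libraries.

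The isoprenoid enzymes Idi1 and Fdps, of which the latter makes farnesyl diphosphate, fell in MSC. Fdps went from 52.6, 30.5 and 29.1 CPM to 13.7, 10.8 and 17.1 CPM in MSC (log2 fold change -1.44, SE 0.39, adjusted p = 0.00456). It also fell in CD45+ cells, from 24.9, 16.5 and 18 CPM to 4.55, 14.0 and 8.17 CPM (-1.16, SE 0.42, adjusted p = 0.0369). Neither pair of groups overlapped, but the MSC call was lost without library 1 and the CD45+ call in 7 of 13 alternatives. Reads of Fdps share 28.5% of their words with other genes, mainly the overlapping Gm43738. Idi1 had 64 counts in uninjured and 20 in injured MSC (adjusted p = 0.00451), and the call was lost in 3 of 13 alternatives, leaving out library 1 among them. In CD31+ cells Idi1 had 2 counts before and 18 after injury, a ratio of 5.83 with a 95% counting interval of 1.40 to 51.8 (adjusted p = 0.0291). That rise was lost in 7 of the 12 alternatives that gave a value.

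The squalene enzymes fell in MSC at their first steps. Fdft1, squalene synthase, was at 140, 66.5 and 92.0 CPM in uninjured and 47.4, 48.1 and 40.8 CPM in injured MSC, and Sqle at 143, 88.7 and 98.6 and then 44.6, 47.4 and 50.5 CPM. Neither overlapped between conditions, and the uninjured libraries were spread more widely than the injured ones. The log2 fold changes were -1.13 for Fdft1 (adjusted p = 0.00736) and -1.22 for Sqle (adjusted p = 0.00226), and without library 1 they were -0.65 (adjusted p = 0.141) and -0.83 (adjusted p = 0.0481). Exons of Fdft1 overlap those of Ctsb on the opposite strand over 774 bases, and reads of both genes cannot be told apart there because the libraries do not mark strand. Lss, which closes the sterol rings as lanosterol synthase, fell in CD45+ cells from 37.5, 19.1 and 18.3 CPM to 11.1, 12 and 9.81 CPM (-1.19, adjusted p = 0.0290). In MSC it was at 31.5, 22.4 and 18.2 CPM and then 21.2, 20.1 and 24.3 CPM, with overlap (adjusted p = 0.807).

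Among the late sterol enzymes Msmo1, the C4 methyl oxidase, fell in MSC from 151, 75.9 and 92.2 CPM to 32.9, 29.8 and 28.2 CPM. With no overlap the log2 fold change was -1.81 (SE 0.31, adjusted p = 6.89e-05), and -1.32 without library 1. In CD45+ cells Msmo1 was at 59.1, 59.3 and 65.0 CPM and then 38.9, 51.2 and 54.2 CPM, lower in every injured library without passing the test (adjusted p = 0.426). Dhcr7, the reductase of 7-dehydrocholesterol, fell in CD45+ cells from 30.6, 35.0 and 26.9 CPM to 11.6, 9.80 and 11.2 CPM (-1.50, SE 0.26, adjusted p = 6.97e-05). In CD31+ cells its injured libraries (21.2, 24.3 and 20 CPM) all lay above the uninjured ones (15.1, 17.8 and 16.5 CPM), at an adjusted p of 0.254. Hsd17b7, a ketoreductase of the C4 demethylation complex, fell in CD45+ cells from 15.7, 10.4 and 10 CPM to 2.27, 4.17 and 5.61 CPM (-1.58, SE 0.40, adjusted p = 0.00328).

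In MSC Tm7sf2 (a sterol C14 reductase), Nsdhl (a C4 decarboxylating dehydrogenase) and Dhcr7 fell by 1.36, 0.79 and 0.79 on the log2 scale, with calls lost in 9, 5 and 5 of 13 alternatives. Ebp, the sterol isomerase, was steady among libraries. In MuSC it was at 54.4, 55.6 and 53.0 CPM uninjured and 75.1, 70.3 and 77.9 CPM injured. Those groups did not overlap and the rise was 0.46 on the log2 scale (SE 0.12, adjusted p = 0.00381). Cyp51, which removes the C14 methyl group, and Sc5d, which adds a ring double bond, passed in no population. Cyp51 was lower in every injured CD45+ library than in any uninjured one (86.4, 53.2 and 53.5 CPM against 23.8, 43.9 and 33.2 CPM; adjusted p = 0.0679).

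Insig1, whose protein retains the SREBP complex and whose gene is itself an SREBP target, fell in 3 of the 4 populations. In MSC it went from 189, 121 and 128 CPM to 29.2, 26.2 and 26.1 CPM, a log2 fold change of -2.43 (SE 0.29, adjusted p = 5.11e-07). In MuSC it went from 148, 71.5 and 55.6 CPM to 29.2, 27.9 and 39.6 CPM (-1.51, SE 0.28, adjusted p = 0.000175). In CD31+ cells it went from 37.4, 37.6 and 43.6 CPM to 14.3, 24.1 and 15.4 CPM (-1.15, SE 0.30, adjusted p = 0.00664). None of these pairs overlapped, and the injured libraries of the 3 populations came to lie within 14.3 to 39.6 CPM from uninjured levels that ranged from 37.4 to 189 CPM. In CD45+ cells Insig1 was at 52.2, 28.3 and 40.6 CPM and then 32.6, 32.6 and 29.4 CPM, with overlap (adjusted p = 0.370). Without library 1 the MSC value was -2.04, and without library 1 of uninjured MuSC the MuSC value was -0.96, still past the threshold at an adjusted p of 0.00367.

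The SREBP genes themselves fell in MSC. Srebf2, the main factor for sterol genes, was at 133, 129 and 112 CPM in uninjured and 44.3, 43.1 and 60.2 CPM in injured MSC. It was at 120, 130 and 110 CPM in uninjured and 56.8, 80.6 and 57.2 CPM in injured CD45+ cells. Neither pair overlapped, and the uninjured libraries lay close together, unlike those of most sterol enzymes. The log2 fold changes were -1.34 in MSC (SE 0.17, adjusted p = 7.13e-07) and -0.88 in CD45+ cells (SE 0.17, adjusted p = 0.000236). Srebf1, whose products drive fatty acid genes above all, fell in MSC from 156, 140 and 121 CPM to 65.7, 86.9 and 74.4 CPM (-0.88, SE 0.21, adjusted p = 0.00166). In CD45+ cells its libraries overlapped, at 63.6, 42.5 and 52.1 CPM and then 73.5, 58.8 and 59.1 CPM (adjusted p = 0.366). In MuSC both genes lay near the threshold, Srebf1 at -0.53 (adjusted p = 0.0510) and Srebf2 at -0.37 (adjusted p = 0.0816), with overlapping libraries. They were called lower there in 7 and 5 of 13 alternatives. In CD31+ cells Srebf1 changed by 0.21 (adjusted p = 0.528) and Srebf2 by 0.08 (adjusted p = 0.806). Stard4 passed in no population, although its libraries did not overlap between conditions in CD31+ cells (56.8, 63.3 and 47.0 CPM after injury; adjusted p = 0.254) or in CD45+ cells (adjusted p = 0.0575).

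**Figure D4:**
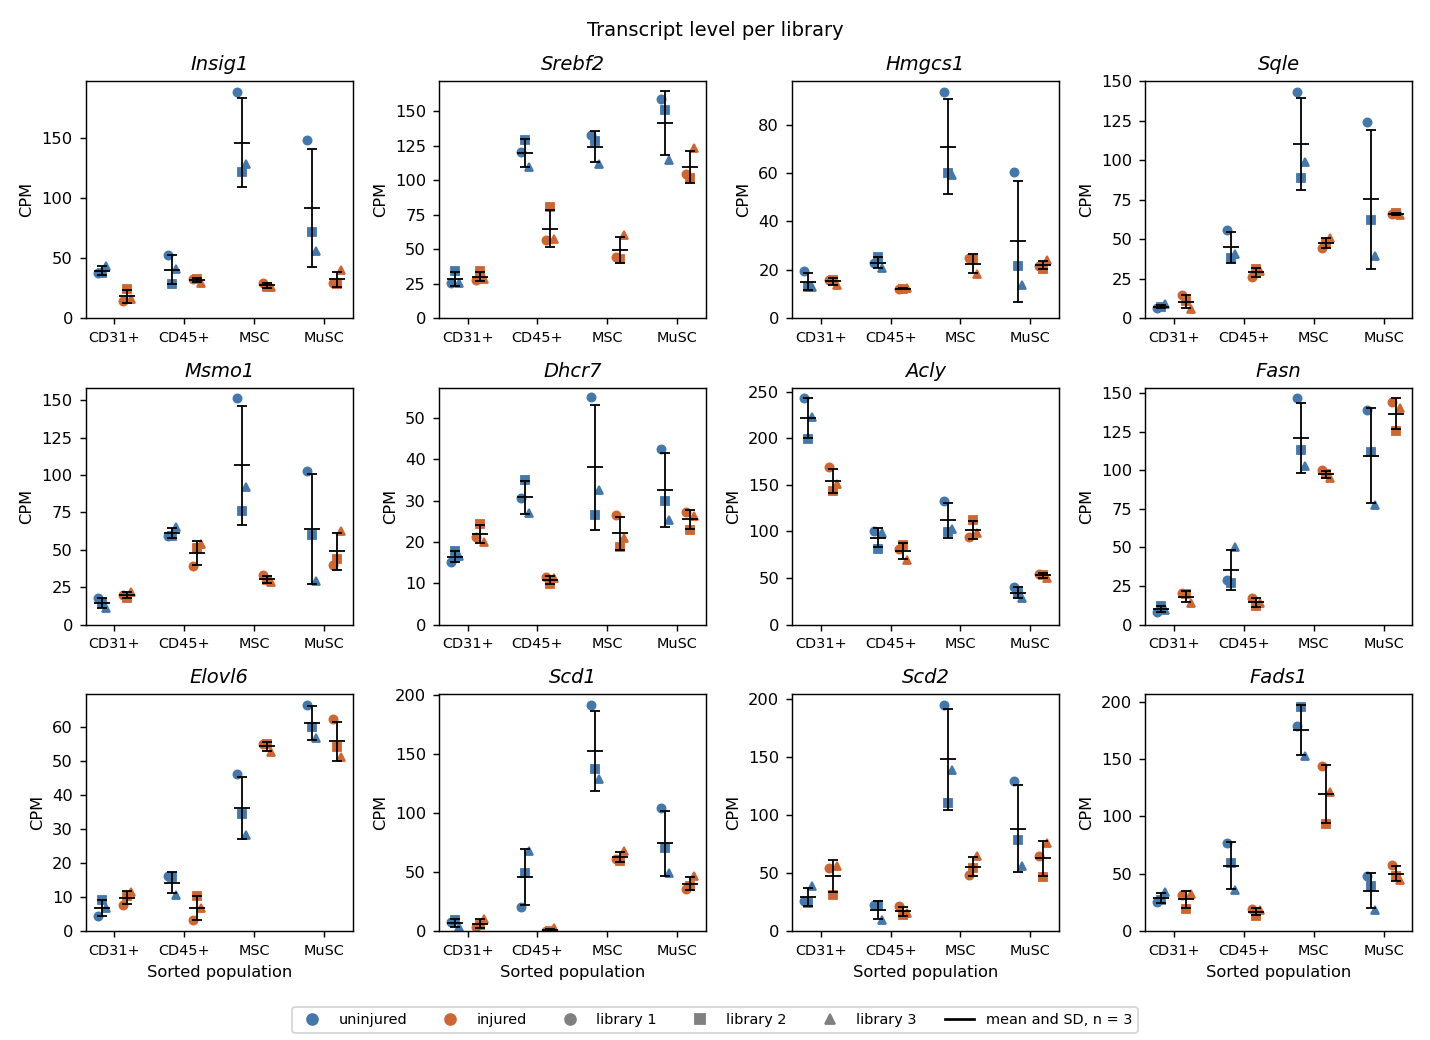
CPM per library of 12 of the genes in the 4 populations, uninjured in blue and injured in orange, with symbols for the library number and black bars for the mean and SD of 3 libraries. Insig1 falls in CD31+, MSC and MuSC, Scd1 falls to near 0 in injured CD45+ cells, and Acly falls in CD31+ and rises in MuSC.

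Fatty acid supply and synthesis moved in different directions by population. Acly fell in CD31+ cells from 243, 200 and 223 CPM to 169, 143 and 151 CPM (-0.52, SE 0.14, adjusted p = 0.00615), a call that was lost with no filter on low counts (adjusted p = 0.166). In MuSC it rose from 40.5, 34.2 and 28.5 CPM to 54.4, 53.6 and 50 CPM (0.61, SE 0.15, adjusted p = 0.00166). Neither pair overlapped, and the levels of these populations lay closer together after injury than before. Acaca, acetyl-CoA carboxylase, which makes malonyl-CoA, passed in no population, and 34.8% of its words are shared with other genes. In CD31+ cells it was at 7.86, 8.47 and 11.2 CPM and then 13.2, 13.6 and 17.6 CPM, without overlap (adjusted p = 0.0568).

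Fasn rose in CD31+ cells from 8.08, 12.1 and 9.73 CPM to 20.3, 19.6 and 13.8 CPM (0.85, SE 0.26, adjusted p = 0.0204), a call lost in 6 of 13 alternatives. It fell in CD45+ cells from 29.2, 26.6 and 50.4 CPM to 17.2, 11.8 and 14.2 CPM (-1.29, SE 0.25, adjusted p = 0.000258). Neither pair overlapped, and after injury the 2 populations lay in the same range. In MSC and MuSC Fasn did not pass (147, 113 and 103 then 99.95, 97.3 and 95.3 CPM in MSC; 139, 112 and 77.8 then 144, 125 and 140 CPM in MuSC). Elovl6, which elongates palmitate, fell in CD45+ cells from 16.1, 15.9 and 10.6 CPM to 3.28, 10.3 and 6.77 CPM (-1.06, SE 0.30, adjusted p = 0.00863). In MSC its injured libraries (54.9, 55.0 and 52.7 CPM) lay above the uninjured ones (46.1, 34.3 and 28.2 CPM) with an adjusted p of 0.0649, and without library 1 it rose by 0.95 (adjusted p = 0.00973). Acly, Fasn and Idi1 were the 3 genes of the 30 that rose in some population and fell in another, as 7.66% of all genes did.

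Across the 30 genes and 4 populations the largest log2 fold change was that of Scd1 in CD45+ cells, from 20.4, 49.2 and 68.1 CPM to 0.253, 0.490 and 2.34 CPM. All injured libraries lay far under the lowest uninjured one, and 13 counts remained over the 3 of them against 494 before. The log2 fold change was -5.41 (SE 0.62, adjusted p = 1.50e-06). In MSC Scd1 fell from 191, 137 and 129 CPM to 61.4, 59.2 and 67.8 CPM (-1.28, SE 0.38, adjusted p = 0.0105), with an adjusted p of 0.103 without library 1. In MuSC it was at 104, 70.5 and 48.9 CPM and then 35.9, 38.2 and 46.6 CPM, without overlap (adjusted p = 0.0781).

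Scd2, which lies near Scd1, followed in MSC only by the test, from 195, 110 and 139 CPM to 48.1, 54.4 and 64.3 CPM (-1.41, SE 0.32, adjusted p = 0.00112). In CD45+ cells Scd2 was at 22.5, 22.3 and 9.45 CPM and then 21.2, 14.0 and 15.6 CPM, with overlap (adjusted p = 0.871). Fads1 fell in CD45+ cells from 76.4, 59.0 and 36.1 CPM to 19.5, 13.5 and 18 CPM (-1.75, SE 0.31, adjusted p = 0.000125). In MSC it was at 179, 196 and 152 CPM and then 144, 93.5 and 122 CPM, without overlap (adjusted p = 0.108). Fads2 passed in no population, and in CD45+ cells it had 26 counts before and 16 after injury. Fdps, Dhcr7, Srebf2 and Scd1 were the 4 genes that fell in both CD45+ cells and MSC, which 7.1% of all genes did.

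Whether the response itself differed between populations was tested by an F test over the 4 injury effects, and 17 of the 30 genes passed it (35.9% of all genes). Of these, 11 passed in each of 30 alternatives: Msmo1, Dhcr7, Insig1, Srebf1, Srebf2, Acly, Fasn, Elovl6, Scd1, Scd2 and Fads1. The count was 12 without library 1 of uninjured CD31+ or of injured CD45+ cells, and up to 19 with other libraries left out. Each population's effect was then set against the mean effect of the other 3. A higher or lower response in this sense can reflect changes in the other populations as well as in the population named. In CD31+ cells 8 genes had a higher response than the rest (5.64% of all genes) and 1, Acly, a lower one (3.64%), 9.28% in all. The higher ones were Idi1, Msmo1, Hsd17b7, Dhcr7, Srebf2, Fasn, Scd1 and Scd2, of which Srebf2 differed by 0.94 on the log2 scale (SE 0.20, adjusted p = 0.00399) and Dhcr7 by 1.29 (SE 0.28, adjusted p = 0.00428). Of these only Idi1 and Fasn rose by the test within CD31+ cells, where Scd1 changed by -0.11 (adjusted p = 0.908) and Srebf2 by 0.08 (adjusted p = 0.806). The 8 became 5 without library 1 or 2 of uninjured or library 3 of injured CD31+ cells, or library 2 of injured CD45+ cells. The call of Acly was lost without library 1 of uninjured or library 2 or 3 of injured CD31+ cells.

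In CD45+ cells 8 genes had a lower response (16.1% of all genes): Acat2, Mvk, Dhcr7, Acaca, Fasn, Elovl6, Scd1 and Fads1, of which 5 are fatty acid enzymes. Insig1 was the 1 gene with a higher response there (9.59%, and 25.7% of all genes either way), by 1.33 (SE 0.34, adjusted p = 0.00492). Without library 1 of injured CD45+ cells the 8 became 5, and with 11 of the single libraries left out in turn the 1 became 2. In MSC 9 genes had a lower response (8.29%, and 14.7% of all genes either way): Hmgcs1, Idi1, Sqle, Msmo1, Ebp, Insig1, Srebf1, Srebf2 and Scd2. This count was 2 without library 1 of uninjured MSC, 4 without library 1 of injured MSC, and 5 without library 3 of either MSC group, library 2 of uninjured CD31+ cells, library 3 of uninjured or any library of injured CD45+ cells. No gene had a higher response in MSC by edgeR (6.39% of all genes did), with 1 at an unadjusted p below 0.05 and 1 by DESeq2. In MuSC Acly and Fads1 had a higher response (9.32%, with 4.17% lower and 13.5% either way), by 0.92 (SE 0.17, adjusted p = 0.00051) and 1.29 (SE 0.33, adjusted p = 0.0111), and 0 a lower one, in edgeR and also at an unadjusted p below 0.05. The 2 became 1 without library 2 of injured CD45+ cells and 5 without library 1 of uninjured MuSC.

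Genes around the pathway are given from lists chosen for their function. Their counts stand beside the shares of all genes that rose and fell, which were 14.1% and 9.3% for CD31+ cells, 16% and 18.5% for CD45+ cells, 18.3% and 23.6% for MSC, and 21.4% and 17.5% for MuSC. In lists this small many counts lay near those shares, also where this is not said, and no list was tested as a set. Of 13 genes of the isoprenoid branch and prenylation, which use the intermediates of the pathway for coenzyme Q and for lipid anchors on proteins, 6 rose in MuSC, 5 in MSC, 5 in CD31+ cells and 2 in CD45+ cells, the last near the share over all genes, and the rest did not pass. Pdss1, a subunit of the synthase of the coenzyme Q side chain, rose in MSC from 9.89, 10.8 and 12.7 CPM to 39.0, 32.8 and 39.0 CPM and in MuSC from 13.6, 18 and 15.3 CPM to 71.6, 47.5 and 68.9 CPM. Neither pair overlapped, and these increases stood beside lower Fdps and Hmgcs1 in the same MSC libraries. Rce1, which trims prenylated proteins, rose in MSC by 0.97 (SE 0.18, adjusted p = 0.000118).

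Of 11 genes of cholesterol uptake, transport and esterification, 6 rose in CD45+ cells and the rest did not pass, while 1 rose and 7 fell in MSC and 2 rose and 5 fell in MuSC. In CD31+ cells 2 fell. Scarb1, the receptor for high-density lipoprotein, fell in CD31+ cells from 1565 ± 99.0 to 924 ± 122 CPM (SD, n = 3) and rose in MuSC from 22.7 ± 5.14 to 85.2 ± 15.0 CPM. Gramd1b, which moves cholesterol from the plasma membrane to the endoplasmic reticulum, fell in MuSC from 36.7 ± 9.24 to 8.2 ± 1.12 CPM. Of 9 genes of SREBP processing and sterol-sensing degradation, 1 rose and 1 fell in CD31+ cells, 1 fell in CD45+ cells, 3 fell and 1 rose in MSC, and 3 fell and 2 rose in MuSC. Insig2, the paralog of Insig1 that is not held to be an SREBP target, was among them: it fell in MSC from 93.0, 80.9 and 92.4 CPM to 33.6, 43.4 and 38.6 CPM and in MuSC from 216, 169 and 241 CPM to 66.1, 80.9 and 69.3 CPM. In CD31+ cells, where Insig1 fell, Insig2 libraries overlapped (adjusted p = 0.657).

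Of 7 genes of LXR and cholesterol efflux, 1 rose in CD31+ cells, near the share over all genes, and 3 rose in CD45+ cells. Stromal cells had 3 that rose and 3 that fell, and satellite cells 2 and 3. Nr1h3, which encodes the sterol sensor LXR alpha, rose in CD45+ cells from 9.73, 7.23 and 12.9 CPM to 36.9, 56.4 and 55.8 CPM (2.32, SE 0.29, adjusted p = 1.81e-06). Ch25h, which makes 25-hydroxycholesterol, an oxysterol that holds SREBP back, rose in CD31+ cells from 5.53, 5.08 and 7.96 CPM to 138, 122 and 88.1 CPM and fell in CD45+ cells from 26.6 ± 9.17 to 7.50 ± 6.70 CPM (SD, n = 3). The CD31+ libraries did not overlap. In MuSC Ch25h had 2 counts before and 168 after injury, a ratio of 53.7 with a 95% counting interval of 14.6 to 447. Of the 4 tested genes of oxysterol and bile acid synthesis, 1 rose in CD31+ cells, 2 fell and 1 rose in CD45+ cells, and both MSC and MuSC had 2 that rose and 1 that fell.

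Of 23 genes of fatty acid supply and elongation, 8 rose and 2 fell in CD31+ cells and 5 rose and 6 fell in CD45+ cells. Stromal cells had 7 that rose and 6 that fell, and satellite cells 8 and 4. Near the shares over all genes were the 2 that fell in CD31+ cells and the 5 that rose in CD45+ cells. The 6 that fell in stromal cells and the 4 that fell in satellite cells were near them too. G6pdx, which supplies NADPH, rose in MuSC from 47.0 ± 4.08 to 129 ± 8.65 CPM, and Idh1, which can supply it too, fell in MSC from 399 ± 51.1 to 153 ± 17.8 CPM (SD, n = 3). Of 10 genes of triglyceride synthesis and storage, 3 rose and 2 fell in CD31+ cells, and 3 rose and 1 fell in CD45+ cells. The stromal cells had 1 that rose and 4 that fell, and the satellite cells 2 and 3. Plin2, which coats lipid droplets, rose in all 4 populations, most in CD45+ cells, from 322, 314 and 336 CPM to 2288, 2998 and 2504 CPM. Of 14 tested genes of fatty acid oxidation, 1 rose and 3 fell in CD31+ cells and 1 and 2 in CD45+ cells, with the same numbers in MSC as in CD45+ cells and in MuSC as in CD31+ cells. Of 7 tested sterol enzymes and redox partners outside the 30, Por, which passes electrons to Sqle and Cyp51, rose in CD45+ cells from 109 ± 23.0 to 741 ± 22 CPM, while 2 of the list fell there, 2 fell in CD31+ cells, 2 fell in MSC, and 2 rose and 3 fell in MuSC.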

How the data were processed

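RNA of about 1000 sorted cells per library was primed with oligo(dT), amplified by PCR and sequenced in pairs of 25 bases, per the labels' protocols, without strand marks or molecular identifiers. The authors deposited raw counts per gene symbol. STAR 2.5.4, featureCounts and mm10 are named in the submitters' processing notes, and their settings are not given in the sources. All 24 libraries were fitted in 1 edgeR 4.0.16 quasi-likelihood model (R 4.3.3, TMM, filterByExpr over 8 groups, 16 residual degrees of freedom), with Benjamini-Hochberg adjustment over 16263 genes and a threshold of 0.05. Standard errors are the log2 fold change divided by the root of F, an approximation. CPM used TMM-scaled totals. P-values reflect only how these libraries vary, which may be technical, and counting intervals and floors cover counting error only. The 30 genes and all lists were chosen with earlier results of these data known. All 30 are named, and from each pathway list at most 3 genes, by the smallest p of the test between populations. Only list genes that passed that test, with a mean of at least 10 CPM in some group, could be named. The fit was tested on simulated data. Alternatives used DESeq2 1.42.0 and limma 3.58.1 (voom), DESeq2's size factors, no filter, only the groups compared, a replicate block, each library left out, and, chosen after seeing the data, 20 libraries without the 4 uninjured ones numbered 1, and the populations with the highest uninjured level with libraries left out.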

Additional observations from a re-analysis of the deposited data

Results flagged for a closer look

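The injury effect differed between the 4 populations for 17 of the 30 genes and for named genes of the surrounding lists, by the F test of the difference itself in edgeR with p adjusted over all genes. Among the sterol enzymes the adjusted p was 0.0496 for Hmgcs1, 0.0343 for Mvd, 0.00559 for Idi1, 0.0334 for Sqle, 0.0491 for Tm7sf2, 0.00356 for Msmo1, 0.0402 for Hsd17b7 and 0.00119 for Dhcr7. Among the regulators it was 0.00287 for Insig1, 0.00757 for Srebf1 and 0.000349 for Srebf2. Among the fatty acid enzymes it was 0.000633 for Acly, 0.000235 for Fasn, 0.00708 for Elovl6, 0.000222 for Scd1, 0.00786 for Scd2 and 0.00136 for Fads1.

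The named genes of the surrounding lists were picked by the smallest p of this same test, from list genes that passed it. A mean of at least 10 CPM in some group was also asked for. Their passing was thus fixed by the choice and is no result in itself. In the surrounding lists the adjusted p of the same test was 1.06e-05 for Nr1h3, 0.000264 for Arl4c, 3.92e-05 for Insig2, 0.00931 for Rnf145, 7.26e-08 for Scarb1 and 3.69e-06 for Gramd1b. It was 0.0110 for Acaa2, 0.0334 for Cpt2, 4.09e-06 for G6pdx, 4.20e-05 for Idh1, 0.00384 for Pdss1 and 0.00990 for Rce1. It was 1.13e-09 for Por, 0.000129 for Cyb5r3, 1.46e-06 for Ch25h, 0.00299 for Cyp7b1, 4.85e-06 for Lpin3 and 2.47e-05 for Plin2. Over whole lists, 4 of 7 (LXR and efflux), 4 of 9 (SREBP processing), 9 of 11 (cholesterol uptake) and 3 of 14 (fatty acid oxidation) passed. So did 12 of 23 (fatty acid supply), 7 of 13 (isoprenoid branch) and 5 of 7 (other sterol enzymes). The rest were 2 of 4 (oxysterol) and 6 of 10 (triglyceride), beside 35.9% of all genes.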

How the results depend on the processing

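Of 2457 values of single genes under alternatives, 2205 kept their side of the threshold (92 of them uncalled values that changed sign), 164 lost the call, 88 gained it and 0 called values changed sign. The causes were not tested. After injury the genes higher in CD31+ cells became 1 with DESeq2, voom or the replicate block and 0 with 20 libraries, and those lower 1 with no filter. In CD45+ cells the higher became 1 with no filter, only the groups compared or 20 libraries, and the lower 7 with voom and 14 with DESeq2. In MSC the higher became 1 with no filter, voom, only the groups compared or 20 libraries. The 14 lower in MSC became 17 with DESeq2's size factors, 18 with DESeq2 and 19 with voom. With no filter or with 20 libraries 10 of the 14 kept the call. In MuSC the higher became 1 with 20 libraries, and the lower 4 with DESeq2's size factors, 5 with DESeq2 or voom, 3 with only the groups compared and 2 with the block. Against the mean of the other populations, the higher in CD31+ became 3 with voom and 4 with 20 libraries, and the lower 0 with no filter. The higher in CD45+ became 2 with DESeq2's size factors, no filter, DESeq2, the block or 20 libraries, and the lower 5 with voom. The higher in MSC became 1 with no filter, DESeq2, voom or 20 libraries.

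With each library left out in turn, the genes higher and lower after injury ranged from 0 to 2 and 2 to 2 in CD31+, 0 to 1 and 6 to 10 in CD45+, 0 to 1 and 7 to 14 in MSC, and 2 to 3 and 1 to 7 in MuSC. Those whose response differed between populations ranged from 12 to 19. The higher and lower against the other populations ranged from 5 to 10 and 0 to 1 in CD31+, 1 to 2 and 5 to 10 in CD45+, 0 to 1 and 2 to 10 in MSC, and 1 to 5 and 0 to 0 in MuSC. Between uninjured populations the differing genes ranged from 18 to 21 (CD31+ and CD45+), 28 to 29 (CD31+ and MSC), 22 to 24 (CD31+ and MuSC), 12 to 17 (CD45+ and MSC), 10 to 16 (CD45+ and MuSC) and 6 to 17 (MSC and MuSC).

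The labels give the replicate numbers and no shared animal. Deviations of same-numbered uninjured and injured libraries correlated at -0.0828 to 0.0723 over 12 pairs. Those of different populations within a condition correlated at -0.00941 to 0.0699 over 18 uninjured pairs and at -0.0142 to 0.133 over 18 injured pairs. Their medians were 0.0178 and 0.0245, against -0.0106 and -0.0121 for pairs of unequal numbers. Over 0.1 lay 3 injured pairs of equal number and 0 of unequal number. A weak link by number between populations is thus not excluded. The main fit took the libraries as independent, also between populations, and the replicate block was run as an alternative. With the replicate block 10 genes fell in CD45+ cells, 13 fell in MSC and 13 differed in response. Depth limits Idi1 in CD31+ cells and Scd1 and Fads2 in injured CD45+ cells, which rest on few counts.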
